A study of Mus musculus with 10 samples.

Results

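The genes described here are 9 genes that mark granule neurons of the cerebellum, taken from the 54532 genes counted in RNA-seq libraries of NeuN+ nuclei of the adult mouse brain. They were chosen by name: *Gabra6*, *Cbln3*, *Cbln1* and *Fat2*, which act at synapses and the cell surface, and *Zic1*, *Zic2*, *Neurod1*, *Barhl1* and *Pax6*, which are transcription factors. The nuclei came from brains of C57BL/6J mice that were homogenised and sorted by FACS for NeuN, a nuclear antigen of most mature neurons, and the libraries were made from poly(A) RNA. There were 5 control libraries without Cre, of which replicates 1 to 3 came from Mphosph8fl/fl and replicates 4 and 5 from Morc2afl/fl mice, 3 *Mphosph8*Δ/Δn libraries (Mphosph8fl/fl Nestin-Cre+) and 2 *Morc2a*Δ/Δn libraries (Morc2afl/fl Nestin-Cre+). All 10 libraries therefore carried floxed alleles of 1 of the 2 genes, and only the knockout libraries carried Cre, so that Cre and the deletion cannot be told apart. Nestin-Cre acts in progenitors of the nervous system, so the deletion is not confined to granule neurons or to the cerebellum. *Mphosph8* encodes MPP8, a subunit of the HUSH complex that silences transposons and other loci marked by H3K9 methylation, and *Morc2a* encodes an ATPase that works with HUSH. The question here was how the genes of 1 neuron type compare between genotypes, between the floxed lines and between single libraries.

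Granule neurons are the most numerous neurons of the brain. They are small, lie densely in the inner layer of the cerebellar cortex, receive mossy fibre input and send parallel fibres to Purkinje cells. They arise from progenitors of the rhombic lip that express *Atoh1*. ZIC1, ZIC2, PAX6, NEUROD1 and BARHL1 act while they are formed, and several of these factors stay on in the adult. Mature granule neurons make GABA-A receptors with the α6 subunit encoded by *Gabra6*, and secrete cerebellins, of which CBLN1 bridges parallel fibres to the GluD2 receptor of Purkinje cells and CBLN3 depends on CBLN1 for its secretion. FAT2 is a large atypical cadherin on parallel fibres. *Gabra6*, *Cbln3* and *Fat2* are the members most restricted to granule neurons, whereas *Cbln1*, *Zic1*, *Neurod1* and *Pax6* are also found in other neurons, so that bulk levels of these 4 need not come from the cerebellum. In bulk libraries, fewer nuclei of a type and less RNA in each nucleus cannot be told apart.

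The windows of 250 bases upstream of a RefSeq transcription start are shown for 5 members, namely those with the widest range over libraries and some of the transcription factors. The sequences are those of RefSeq on GRCm38.p6, 5′ to 3′ on the strand of the gene, and capitals mark CpG dinucleotides. The first 3 are of *Gabra6* (chr11:42321073-42321322, minus strand), *Cbln3* (chr14:55884257-55884506, minus strand) and *Fat2* (chr11:55312258-55312507, minus strand), the members that separated the libraries most. The other two are of *Zic1* (chr9:91365769-91366018, minus strand) and *Neurod1* (chr2:79456637-79456886, minus strand), whose levels varied less.
Gabra6: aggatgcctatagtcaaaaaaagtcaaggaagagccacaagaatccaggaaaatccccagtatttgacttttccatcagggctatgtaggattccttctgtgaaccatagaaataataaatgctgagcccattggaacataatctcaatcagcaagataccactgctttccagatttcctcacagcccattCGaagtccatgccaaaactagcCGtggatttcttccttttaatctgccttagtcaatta
Cbln3: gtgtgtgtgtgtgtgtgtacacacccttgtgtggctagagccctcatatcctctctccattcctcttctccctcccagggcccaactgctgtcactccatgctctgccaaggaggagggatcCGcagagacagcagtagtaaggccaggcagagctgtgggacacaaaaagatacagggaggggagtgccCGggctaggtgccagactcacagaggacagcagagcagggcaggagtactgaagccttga
Fat2: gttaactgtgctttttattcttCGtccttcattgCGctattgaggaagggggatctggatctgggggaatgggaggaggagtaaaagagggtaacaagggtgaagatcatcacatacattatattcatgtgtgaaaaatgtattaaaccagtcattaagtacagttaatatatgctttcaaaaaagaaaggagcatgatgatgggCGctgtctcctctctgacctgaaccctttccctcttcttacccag
Zic1: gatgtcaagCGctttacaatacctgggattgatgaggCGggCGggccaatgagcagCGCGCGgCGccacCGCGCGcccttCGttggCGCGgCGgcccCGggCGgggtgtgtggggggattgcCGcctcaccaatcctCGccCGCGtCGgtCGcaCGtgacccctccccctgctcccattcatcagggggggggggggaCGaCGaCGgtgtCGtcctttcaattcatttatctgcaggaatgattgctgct
Neurod1: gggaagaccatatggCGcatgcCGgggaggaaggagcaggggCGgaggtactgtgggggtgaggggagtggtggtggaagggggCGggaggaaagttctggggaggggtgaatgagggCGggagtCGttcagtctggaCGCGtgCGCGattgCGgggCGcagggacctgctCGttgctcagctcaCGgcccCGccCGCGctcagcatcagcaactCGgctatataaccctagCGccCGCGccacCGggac

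*Gabra6* and *Cbln3* have 2 CpG each and *Fat2* has 3, whereas *Zic1* has 27 and *Neurod1* has 22. Over 32851 such windows of 27025 genes the median was 6 CpG, and 37.8% of windows held 3 or fewer. The 3 CpG-poor windows are thus not unusual among these windows. That of *Fat2* lies inside the GENCODE gene, and whether transcription starts there in these nuclei was not tested. At least 22 CpG were found in 14.8% of windows. The GC content was 40.8% for *Gabra6*, 41.6% for *Fat2*, 57.6% for *Cbln3*, 66.0% for *Zic1* and 67.6% for *Neurod1*, around a median of 52.4%. *Pax6* has 2 windows with 15 CpG each, and *Barhl1* has 2 windows with 7 and 12, so the transcription factors are not alike in CpG. A link between CpG and the levels over libraries was not tested. RefSeq entries were matched for 7 of the 9 members, all but *Cbln1* and *Zic2*. E-boxes, the sites of bHLH factors such as NEUROD1, were searched on both strands with the letters CAGATG and with a second, palindromic form, CAGCTG. The first form occurred in none of the 9 windows of members and in 14.4% of all windows, and the palindrome only in the 2 *Barhl1* windows and in 13% of all. These counts describe the letters of the windows, and binding was not measured.

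In the annotation, *Gabra6* (ENSMUSG00000020428) lies at chr11:42306437-42321072 and *Fat2* (ENSMUSG00000055333) at chr11:55250609-55336564, both on the minus strand. *Cbln3* (ENSMUSG00000040380) lies at chr14:55878913-55884392 and *Cbln1* (ENSMUSG00000031654) at chr8:87468405-87472609, also on the minus strand. The transcription factors are *Zic1* (ENSMUSG00000032368, chr9:91358058-91365810, minus), *Zic2* (ENSMUSG00000061524, chr14:122475435-122479852, plus), *Neurod1* (ENSMUSG00000034701, chr2:79452521-79456751, minus), *Barhl1* (ENSMUSG00000026805, chr2:28907679-28916668, minus) and *Pax6* (ENSMUSG00000027168, chr2:105668900-105697364, plus). All positions are on GRCm38. The promoter windows shown above follow the RefSeq starts: that of *Fat2* lies inside the longer GENCODE gene, and those of *Cbln3*, *Zic1* and *Neurod1* overlap its outer end. Each value given for a gene is the sum over its exons. *Neurod1* shares 13.0% of its exonic bases with *Cerkl* and *Gm26755*, and *Zic1* shares 1.05% with *Zic4* on the opposite strand, so a part of their reads could be assigned otherwise.

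Libraries held 6686038 to 10764555 counts. Levels are counts scaled to library size and TMM factors (CPM), and where no read was counted, a level below that of 3 counts (0.279 to 0.449 CPM by library size alone) was not detectable. *Rbfox3*, the gene of the NeuN antigen, was at 150 to 304 CPM in every library. *Atoh1*, the progenitor gene, was at 0 counts in 9 libraries and at 3 in the other. As group differences, the gene-level counts did not show the deletions. In edgeR's quasi-likelihood test, *Mphosph8* differed by -0.34 (log2, SE 0.23, adjusted p = 0.967) upon *Mphosph8* loss and *Morc2a* by 0.64 (SE 0.14, adjusted p = 0.0916) upon *Morc2a* loss. The p-values were adjusted after Benjamini and Hochberg over 18573 genes. *Mphosph8* was at 37.1, 35.9 and 18.8 CPM in the 3 *Mphosph8*Δ/Δn libraries, in order of replicate, and at 32.2 to 48.9 CPM in controls. Only the last of them lay below all controls. *Morc2a* was at 215 and 223 CPM in the 2 *Morc2a*Δ/Δn libraries, above the 122 to 163 CPM of all controls. It was at 185, 200 and 153 CPM in the *Mphosph8*Δ/Δn libraries. Counts over whole genes need not show the loss of a floxed exon. The paper states, however, that its removal exposes the mRNA to decay, and reports the loss by qRT-PCR and immunoblots of whole brains. It also shows qRT-PCR of both genes in sorted NeuN+ nuclei of controls and knockouts. *Mphosph8*Δ/Δn replicate 2 stood apart by hormone genes of the pituitary, with *Gh* (growth hormone) at 108 CPM against 0 to 3.93 CPM in the other libraries.

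Of the 9 genes, 6 (*Gabra6*, *Cbln3*, *Fat2*, *Cbln1*, *Zic1* and *Neurod1*) were highest in 3 libraries that cross the genotypes: control replicate 4, and *Mphosph8*Δ/Δn replicates 1 and 2. Summed over all 9 genes, these libraries reached 573, 336 and 497 CPM. Control replicates 1, 2, 3 and 5 were at 76.8, 110, 121 and 106 CPM, *Mphosph8*Δ/Δn replicate 3 was at 149 CPM, and the 2 *Morc2a*Δ/Δn libraries were at 73.8 and 75.5 CPM. High libraries were thus found among controls (1 of 5) and *Mphosph8*Δ/Δn (2 of 3) but not *Morc2a*Δ/Δn (0 of 2). They were also found in each floxed line, since control replicate 4 is Morc2afl/fl and the other 2 are Mphosph8fl/fl. The group means were 197 ± 211 CPM (SD, n = 5) for controls, 328 ± 174 (SD, n = 3) for *Mphosph8*Δ/Δn and 74.7 ± 1.21 (SD, n = 2) for *Morc2a*Δ/Δn, and the spread within the first 2 groups was larger than the difference between them. The 3 libraries did not stand apart in depth, with 9602104 to 10357845 counts, nor in *Rbfox3*, at 211 to 304 CPM against 150 to 300 CPM in the other 7. The sample titles of all libraries carry numbers that run on in the order of listing, and those of these 3 libraries are neighbours in it. What the numbers stand for is not given in the sources used here, and whether handling differed with them was not tested.

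*Gabra6*, the α6 subunit of the GABA-A receptor, was at 103 CPM in control replicate 4 and at 2.25, 3.12, 5.70 and 4.75 CPM in control replicates 1, 2, 3 and 5. In *Mphosph8*Δ/Δn it was at 49.3, 74.3 and 4.65 CPM, and in *Morc2a*Δ/Δn at 0.744 CPM (7 counts) and at 0 counts. The same 3 libraries were high, and *Morc2a*Δ/Δn lay below every other library.

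*Cbln3*, the cerebellin made by granule neurons, was at 3.88, 6.43, 5.33, 149 and 1.04 CPM in control replicates 1 to 5. It was at 68.2, 92.3 and 7.65 CPM in *Mphosph8*Δ/Δn and at 0.638 and 0.722 CPM in *Morc2a*Δ/Δn, which is 6 and 7 counts. The lowest of the 3 high libraries had 8.92 times the *Cbln3* level of the highest other library, and for *Gabra6* this ratio was 8.65.

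*Fat2*, the cadherin, had the widest gap, with a ratio of 14.0. It was at 2.25, 1.56, 1.96, 58.6 and 0.148 CPM in control replicates 1 to 5, at 46.1, 75.5 and 2.58 CPM in *Mphosph8*Δ/Δn, and at 3.30 and 0.928 CPM in *Morc2a*Δ/Δn. Unlike for *Gabra6* and *Cbln3*, the *Morc2a*Δ/Δn libraries overlapped the controls, and the lowest library was control replicate 5, with 1 count.

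*Cbln1*, which organises synapses of parallel fibres, was at 18.3, 20.4, 20.7, 90.3 and 18.5 CPM in control replicates 1 to 5, at 51.5, 101 and 36.8 CPM in *Mphosph8*Δ/Δn and at 22.7 and 10.9 CPM in *Morc2a*Δ/Δn. The order of libraries was alike at the top, but the 7 other libraries kept more than 10 CPM, and the gap was 1.40 times. Control replicates 1, 2, 3 and 5 lay close together, and *Mphosph8*Δ/Δn replicate 3 lay above them.

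**Figure D1:**
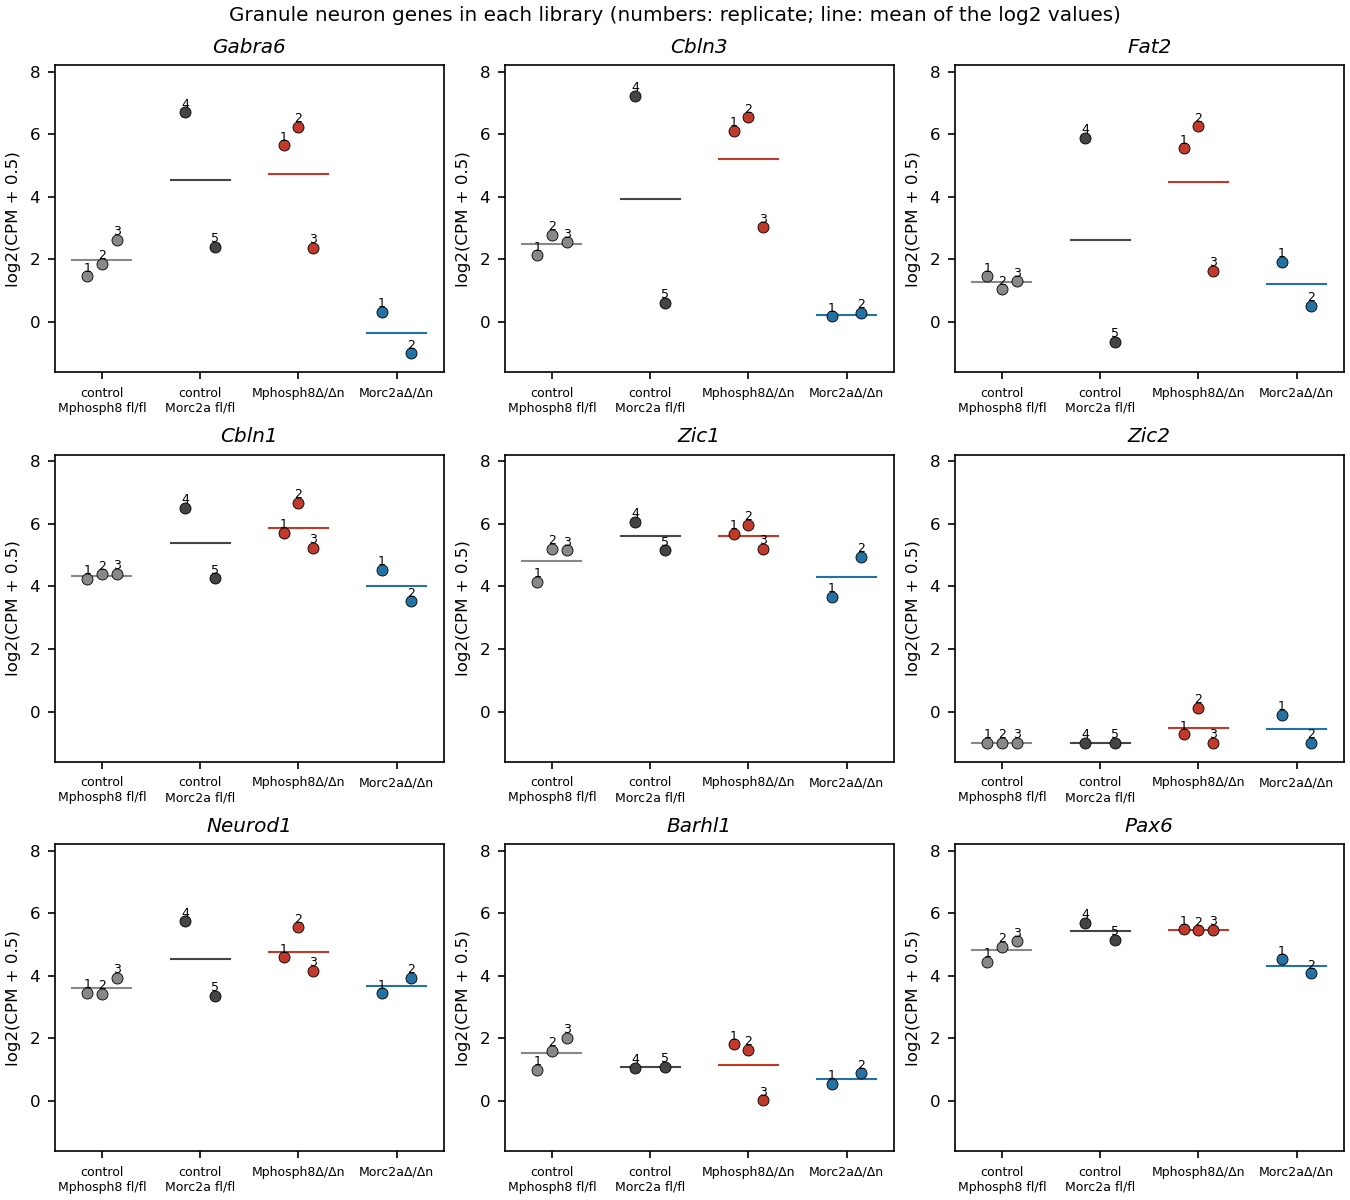
Levels of the 9 granule neuron genes in each library, as log2(CPM + 0.5) on the y axis and by genotype and floxed line on the x axis; each point is 1 library, the number beside it is its replicate and the line is the mean. Control 4 and *Mphosph8*Δ/Δn 1 and 2 sit apart for *Gabra6*, *Cbln3* and *Fat2* (lowest of them 46.1 CPM, highest other library 7.65 CPM), and less so for the others.

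Among the transcription factors, *Neurod1*, a bHLH factor of granule and other excitatory neurons, was at 10.5, 10.2, 14.7, 52.8 and 9.79 CPM in control replicates 1 to 5, at 23.6, 46.1 and 17.4 CPM in *Mphosph8*Δ/Δn and at 10.3 and 14.9 CPM in *Morc2a*Δ/Δn. *Zic1*, a zinc finger factor, was at 17.0, 35.9, 34.9, 66.1 and 35.0 CPM in controls, at 50.2, 61.4 and 36.4 CPM in *Mphosph8*Δ/Δn and at 12.2 and 30.3 CPM in *Morc2a*Δ/Δn. The 3 libraries led for both, by 1.36 times for *Neurod1* and 1.38 times for *Zic1*. *Pax6*, the paired-box factor, was at 21.2, 29.8, 33.8, 50.9 and 35.1 CPM in controls, at 44.2, 43.1 and 43.5 CPM in *Mphosph8*Δ/Δn and at 22.5 and 16.4 CPM in *Morc2a*Δ/Δn. Here *Mphosph8*Δ/Δn replicate 3 was level with replicates 1 and 2, so that *Pax6* did not single out the 3 libraries.

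*Barhl1*, a homeobox factor, was at 1.50, 2.53, 3.55, 1.58 and 1.63 CPM in control replicates 1 to 5, at 3.00, 2.61 and 0.517 CPM in *Mphosph8*Δ/Δn and at 0.957 and 1.34 CPM in *Morc2a*Δ/Δn, from 5 to 38 counts. Control replicate 4 was not high for it. *Zic2* was at 0 counts in all 5 controls, at 1, 6 and 0 counts in *Mphosph8*Δ/Δn and at 4 and 0 counts in *Morc2a*Δ/Δn. It was the 1 member that did not pass the filter on low counts, so 8 of 9 were tested, and no fold is given for it, since its levels lie near the limit of detection.

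Per kilobase of exon, the order of the median levels over the 5 controls was *Cbln1* (6.71 CPM per kilobase), *Zic1* (6.15), *Neurod1* (3.85), *Pax6* (2.89), *Gabra6* (1.91), *Cbln3* (1.09), *Barhl1* (0.418), *Fat2* (0.135) and *Zic2* (0). Over control replicates 1, 2, 3 and 5, the ranges of neighbours in this order overlapped in 5 of 8 pairs. They did not overlap for *Neurod1* (3.59 to 5.38) and *Pax6* (1.81 to 3.01), for *Barhl1* (0.385 to 0.910) and *Fat2* (0.0102 to 0.155), and for *Fat2* and *Zic2*, which had no read in these libraries. Control replicate 4 had another order, led by *Gabra6* at 41.5, *Cbln3* at 30.7 and *Cbln1* at 29.7 CPM per kilobase. This library set the mean of *Gabra6* (9.57 ± 17.9; SD, n = 5), which was at 0.905 to 2.29 in the other 4 controls. In *Mphosph8*Δ/Δn the means were 20.8 ± 11.1 for *Cbln1*, 17.2 ± 14.2 for *Gabra6* and 11.5 ± 8.96 for *Cbln3* (SD, n = 3), while replicate 3 alone was at 12.1, 1.87 and 1.57. In *Morc2a*Δ/Δn *Gabra6* (0.150 ± 0.211), *Cbln3* (0.140 ± 0.012) and *Fat2* (0.145 ± 0.115; SD, n = 2) were below *Barhl1* (0.294 ± 0.070), for *Gabra6* by less than its SD, while *Cbln1* was at 5.53 ± 2.73 and *Neurod1* at 4.61 ± 1.18.

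Of the 8 members tested, 6 had control replicate 4 and *Mphosph8*Δ/Δn replicates 1 and 2 as their 3 highest libraries, against 0.931% of all genes (173 of 18573). The exceptions were *Barhl1* and *Pax6*. A gap of more than 3 times between the 3 libraries and the highest of the other 7 was found for 11 of 18573 genes (0.0592%), and *Gabra6*, *Cbln3* and *Fat2* are 3 of these 11. The libraries were singled out by these genes, so the counts describe how few other genes share the split and are no test of it. The other 8 were *Cnpy1*, *Il16*, *Gprc5c*, *Crtam*, *Svep1*, *Pcp2*, *Defb42* and *Nmur1*, all named after their values were seen. *Il16*, which encodes a PDZ protein with a form in granule neurons, was at 25.6 to 48.6 CPM in the 3 libraries and at 3.41 to 8.26 CPM in the others. *Crtam*, a cell adhesion gene known from T cells, was at 11.7 to 22.1 CPM against 0 to 2.27 CPM. *Pcp2*, a Purkinje cell gene, was at 2.86 to 5.50 CPM against 0 to 0.487 CPM.

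**Figure D2:**
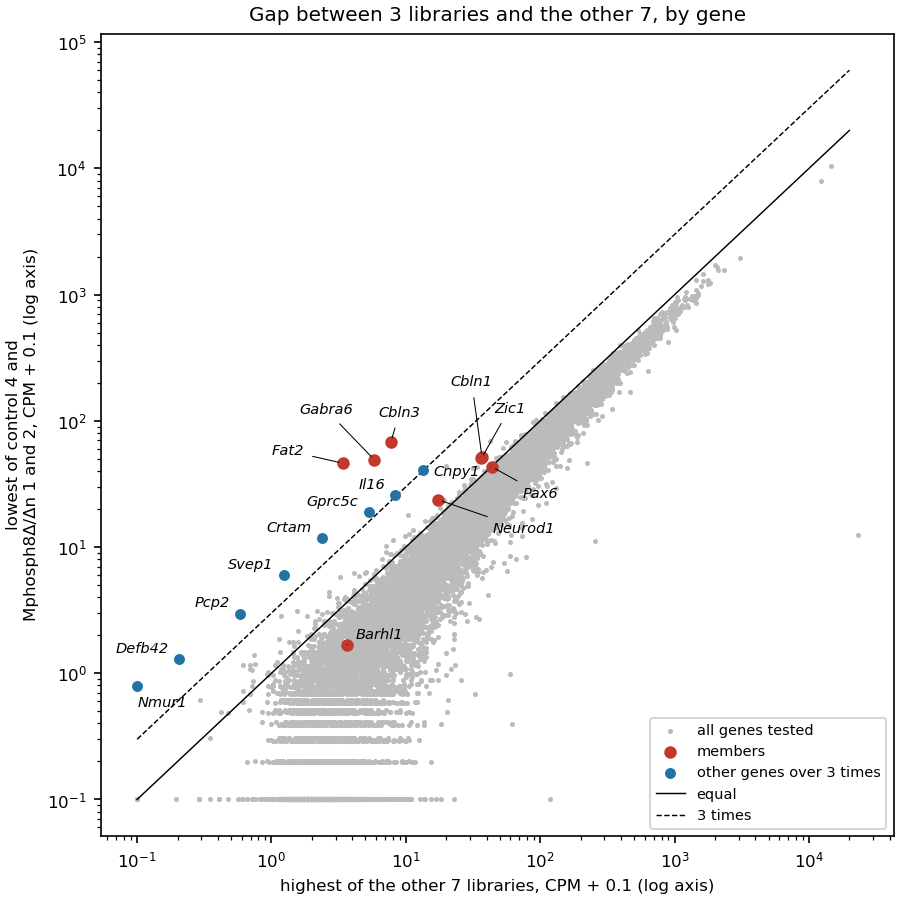
Each of the 18573 genes tested by its highest level in the other 7 libraries (x axis) and its lowest level in control 4 and *Mphosph8*Δ/Δn 1 and 2 (y axis), both as CPM + 0.1 on log axes; red points are the 8 members tested, blue points the other 8 genes over 3 times, and the lines mark equal levels and 3 times. *Gabra6*, *Cbln3* and *Fat2* lie above the 3 times line, with ratios of 8.65, 8.92 and 14.0 between the 2 levels.

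Other genes of granule neurons were followed in a list of 12 (*Gabrd*, *Grin2c*, *Grm4*, *Etv1*, *Unc13c*, *Cdh15*, *Il16*, *Cadps2*, *Kcnk9*, *Mab21l1*, *Zic4* and *Neurod2*), many of which other neurons express as well. For 3 of the 12 the same 3 libraries were highest, against 0.931% of all genes. *Grin2c*, the NMDA receptor subunit of mature granule neurons, was at 92.1, 69.3 and 132 CPM in them and at 16.2 to 41.9 CPM in the other 7. *Etv1*, an ETS factor of granule neurons, was at 40.1 to 48.2 CPM against 23.5 to 37.8 CPM, and *Il16* is given above. *Cdh15*, a cadherin of granule neurons, was at 38.8 CPM in control replicate 4 and 29.0 CPM in *Mphosph8*Δ/Δn replicate 2 but only at 12.1 CPM in replicate 1, level with control replicate 5 (12.2 CPM). *Gabrd*, the δ subunit that pairs with α6 in granule neurons and is used widely in the forebrain, was at 160 to 263 CPM in the 3 and at 170 to 213 CPM in the others, which overlap. Summed, the 12 genes were at 635 to 889 CPM in the 3 libraries and at 536 to 630 CPM in the other 7, a much narrower range than that of the 9.

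**Figure D3:**
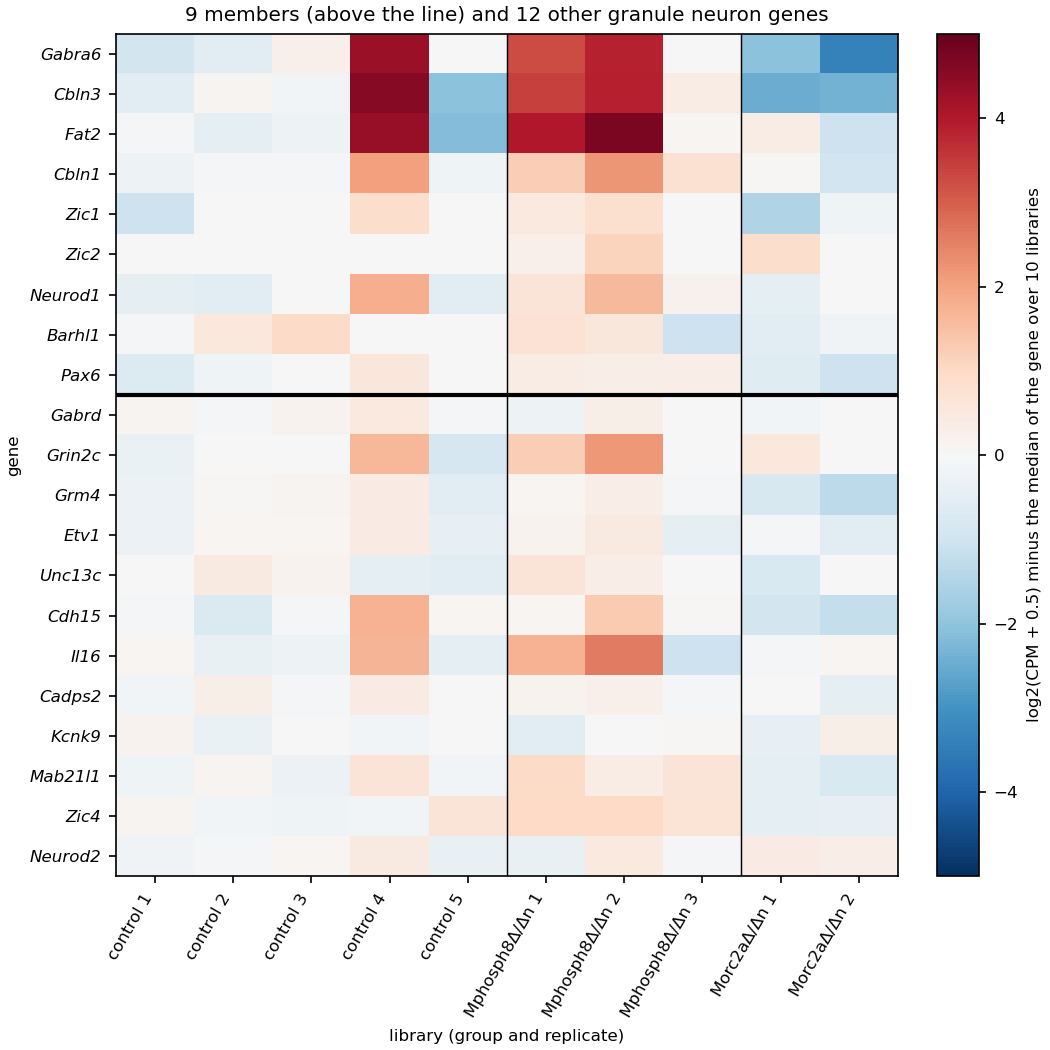
The 9 members and 12 other granule neuron genes (rows) in the 10 libraries (columns, by group), coloured by log2(CPM + 0.5) minus the median of the gene over the 10 libraries. Columns of control 4 and *Mphosph8*Δ/Δn 1 and 2 are red for *Gabra6*, *Cbln3* and *Fat2*, and also for *Grin2c* and *Il16*, while *Kcnk9* and *Gabrd* vary little.

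Lists of relatives and of other cell types were counted in the same way. Over all genes the share was 0.931%, so a count of 0 is common in a short list and sets none apart. The same 3 libraries were highest for 0 of 3 other *Zic* genes, 0 of 2 other cerebellin genes, 0 of 12 other GABA-A subunit genes, 0 of 3 other *Fat* genes and 0 of 5 partners of CBLN1. They were highest for 1 of 7 Purkinje genes (*Pcp2*), 0 of 3 tested genes of cerebellar interneurons, 0 of 4 of unipolar brush cells and 1 of 3 tested of Bergmann glia. The Purkinje genes summed to 524 to 561 CPM in the 3 libraries, within the 494 to 603 CPM of the others. This sum was mostly *Calb1*, *Itpr1* and *Rgs8*, each at 93.9 CPM or more in every library, while *Pcp2* was at 5.50 CPM or less. The sum therefore says little about *Pcp2*. *Slc1a3*, the gene counted in the Bergmann glia list, was at 67.4 to 85.1 CPM against 58.6 to 65.9 CPM. The other 2 tested genes of this list overlapped. *Gdf10* was at 3.19 to 9.09 CPM against 4.39 to 9.94 CPM, and *Aqp4* at 6.82 to 14.4 CPM against 5.67 to 15.1 CPM. The count was 0 of 8 for genes of forebrain excitatory neurons, 0 of 5 for granule neurons of the dentate gyrus, 0 of 5 for astrocytes, 0 of 5 for oligodendrocytes and 0 of 4 for microglia. It was 0 of 5 tested for striatal, 0 of 4 for thalamic, 0 of 9 for midbrain and hindbrain and 1 of 7 for inhibitory neurons (*Lhx6*, at 22.4 to 24.7 CPM against 12.3 to 21.6 CPM). *Pdgfra*, 1 of 2 genes of oligodendrocyte precursors, was at 5.79 to 7.75 CPM against 0.620 to 4.38 CPM. *Cldn5*, 1 of 2 tested genes of endothelial cells, was at 1.06 to 1.55 CPM against 0 to 0.593 CPM.

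Between genotypes, no member passed the threshold of an adjusted p below 0.05 and a fold above 2. Upon *Mphosph8* loss 0 of 8 were called, where 0.0969% of all genes were, and upon *Morc2a* loss 0 of 8, where 0.0592% were. At an unadjusted p below 0.05 the counts were 0 of 8 upon *Mphosph8* loss (5.67% of all genes) and 3 of 8 upon *Morc2a* loss (10.7%), namely *Gabra6*, *Cbln3* and *Pax6*. DESeq2 called 0 members and 1 member (*Cbln3*, adjusted p = 0.0307), and limma-voom called 0 in each. The median log2 fold change of the 8 was 0.65 upon *Mphosph8* loss, with 7 above 0, and -0.96 upon *Morc2a* loss, with 8 below 0, beside -0.01 over all genes in each comparison. The 2 comparisons share the 5 controls, so their directions are not independent. The members vary together and were chosen with earlier results of these data known. Counts of members beside the share of all genes, here and below, are therefore descriptions and no test. With other tools, and where libraries were left out, the number of all genes called moved as well. These totals are given at the end.

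Upon *Mphosph8* loss, the log2 fold changes by edgeR's quasi-likelihood test were 0.83 for *Gabra6* (SE 0.97, adjusted p = 0.997), 0.74 for *Cbln3* (SE 1.00, adjusted p = 0.997), 1.66 for *Fat2* (SE 1.06, adjusted p = 0.951) and 0.90 for *Cbln1* (SE 0.47, adjusted p = 0.900). Those of *Neurod1*, *Zic1*, *Pax6* and *Barhl1* were 0.56, 0.38, 0.35 and -0.09. No member separated the groups, where 2.3% of all genes were higher and 2.26% lower without overlap. Single libraries decided the size. Without control replicate 4, 3 members were called, where refits without 1 library called 6 to 21 of all genes. The log2 fold changes were 3.71 for *Cbln3* (adjusted p = 0.0297), 4.76 for *Fat2* (adjusted p = 0.0329) and 1.70 for *Cbln1* (adjusted p = 0.0367). *Gabra6*, not called, was at 3.43 (adjusted p = 0.0521). Without *Mphosph8*Δ/Δn replicate 2, the values were 0.18 for *Gabra6*, 0.19 for *Cbln3*, 0.91 for *Fat2*, 0.39 for *Cbln1* and 0.06 for *Neurod1*, and 0 members were called. Without the 3 high libraries together, 0 members were called.

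Upon *Morc2a* loss, the log2 fold changes were -5.98 for *Gabra6* (SE 1.93, adjusted p = 0.263), -5.59 for *Cbln3* (SE 1.90, adjusted p = 0.288), -2.63 for *Fat2* (SE 1.57, adjusted p = 0.591) and -1.01 for *Cbln1* (SE 0.59, adjusted p = 0.582). For the factors they were -0.81 for *Pax6* (SE 0.29, adjusted p = 0.308), -0.83 for *Zic1*, -0.64 for *Neurod1* and -0.91 for *Barhl1*. *Gabra6*, *Cbln3* and *Barhl1* were lower in both *Morc2a*Δ/Δn libraries than in all 5 controls, which is 3 of 8 members where 7.79% of all genes were lower without overlap. The 2 *Morc2a*Δ/Δn libraries together held 7 counts of *Gabra6* and 13 of *Cbln3*. Control replicate 4 set the direction for 2 members: without it *Fat2* was at 0.46 and *Neurod1* at 0.14, whereas *Gabra6* stayed at -3.39 and *Cbln3* at -2.64.

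**Figure D4:**
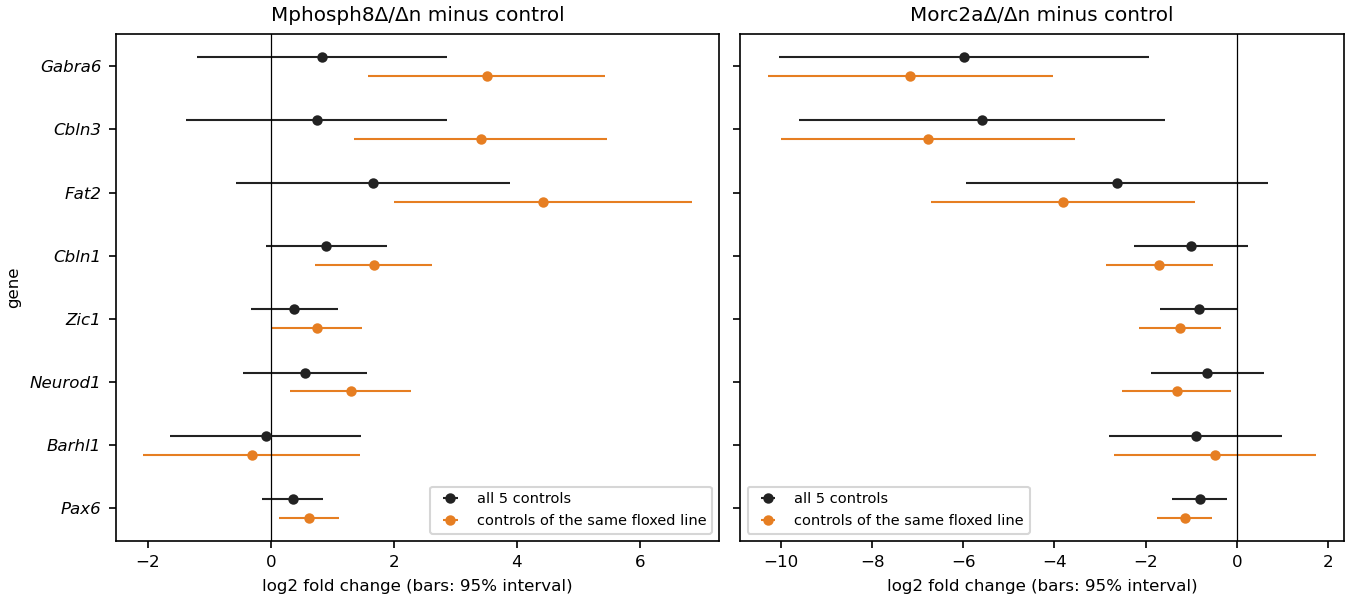
Log2 fold changes of the 8 members tested (y axis) upon *Mphosph8* loss (left) and *Morc2a* loss (right). Points have 95% intervals derived from the edgeR test, against all 5 controls (black) and against the controls of the same floxed line (orange). Against all controls, the intervals upon *Mphosph8* loss all contain 0, and upon *Morc2a* loss *Gabra6* and *Cbln3* lie at -5.98 and -5.59.

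Against controls of the same floxed line, *Mphosph8*Δ/Δn had log2 fold changes of 3.51 for *Gabra6* (SE 0.91, adjusted p = 0.429), 3.41 for *Cbln3* (SE 0.97, adjusted p = 0.535) and 4.43 for *Fat2* (SE 1.15, adjusted p = 0.428), with 0 of 8 members called where 0.0538% of all genes were. At an unadjusted p below 0.05 there were 7 of 8 members and 5.54% of all genes. *Cbln3* and *Fat2* were called without control replicate 4 or without control replicate 5, which are not among these controls but enter the pooled spread, at nearly the same log2 fold changes (3.41 and 4.42). *Morc2a*Δ/Δn had -7.16 for *Gabra6* (SE 1.48, adjusted p = 0.126), -6.77 for *Cbln3* (SE 1.52, adjusted p = 0.169) and -3.81 for *Fat2* (SE 1.37, adjusted p = 0.430), with 0 of 8 called, where again 0.0538% were, and with 7 of 8 members and 9.08% of all genes at an unadjusted p below 0.05. These values rest on control replicate 4, 1 of the 2 controls of this line: without it, *Gabra6* was at -3.64, *Cbln3* at -0.60, *Cbln1* at -0.15 and *Fat2* at 3.71, none of them called. Without control replicate 5, the other control of this line, *Gabra6* and *Cbln3* were called at -8.08 and -7.75 (adjusted p = 0.0122 and 0.00185), and *Gabra6* was also called without *Mphosph8*Δ/Δn replicate 3 (adjusted p = 0.0472).

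The floxed lines were compared among controls themselves. Replicates 4 and 5 (Morc2afl/fl) against 1 to 3 (Mphosph8fl/fl) gave log2 differences of 3.86 for *Gabra6* (SE 0.96, adjusted p = 0.143), 3.85 for *Cbln3* (SE 1.03, adjusted p = 0.191) and 3.95 for *Fat2* (SE 1.18, adjusted p = 0.274), and 0 of 8 members were called where 0.129% of all genes were. At an unadjusted p below 0.05 there were 6 of 8 members and 9.21% of all genes in this comparison, in which no library carries Cre. The 2 Morc2afl/fl controls were themselves far apart: *Cbln3* was at 149 and 1.04 CPM, above and below all 3 Mphosph8fl/fl controls. *Fat2* was likewise at 58.6 and 0.148 CPM, while *Cbln1*, at 90.3 and 18.5 CPM, was above all 3 in replicate 4 and within their range in replicate 5. *Pax6* was the 1 member of 8 that was higher without overlap in Morc2afl/fl controls, where 14% of all genes were. Without control replicate 4, *Cbln3*, *Fat2*, *Cbln1* and *Neurod1* had differences of -2.32, -3.58, -0.10 and -0.27, and without control replicate 5, *Gabra6*, *Cbln3*, *Fat2* and *Cbln1* were called (adjusted p = 0.0225, 0.00721, 0.0404 and 0.0472).

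The effect of *Morc2a* loss minus that of *Mphosph8* loss, each against its own line, was -10.67 for *Gabra6* (SE 1.74, adjusted p = 0.133), -10.19 for *Cbln3* (SE 1.82, adjusted p = 0.133) and -8.24 for *Fat2* (SE 1.82, adjusted p = 0.208) on the log2 scale. None of the 8 members passed, as was the case for all genes (0 of 18573, with 1476 at an unadjusted p below 0.05, among them 7 of the 8 members). DESeq2 called 45 genes, 3 of them members. The values rest on the 2 Morc2afl/fl controls: without control replicate 4, *Gabra6* was at -7.15, *Cbln3* at -4.01 and *Fat2* at -0.71 with 0 members called, and without control replicate 5, 5 members were called. Without *Mphosph8*Δ/Δn replicate 3, *Gabra6* and *Cbln3* were called, and without the 3 high libraries *Gabra6* was at -3.95, *Cbln3* at -1.14 and *Fat2* at 3.30, none of them called.

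Over the 10 libraries the members varied together. Since the libraries fell into separate clusters, correlations of log2(CPM + 0.5) are given as descriptions, and they share library, depth and composition. The 28 pairs of the 8 members had a median Pearson's r of 0.79, from 0.16 to 0.95, and a median Spearman's rho of 0.70. The highest was that of *Gabra6* and *Cbln3* (r = 0.948, rho = 0.855), followed by *Gabra6* and *Cbln1* (r = 0.928). *Barhl1* was the least alike, with r from 0.16 to 0.42. With the group means subtracted the median was 0.63. In the 7 libraries other than the 3 high ones, the median r was 0.29, from -0.51 to 0.89, and the median rho was 0.23. There *Pax6* with *Gabra6* (r = 0.891) and with *Cbln1* (r = 0.794), and *Gabra6* with *Cbln3* (r = 0.687), remained high, while *Fat2* with *Gabra6* was at -0.06 and with *Zic1* at -0.51.

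**Figure D5:**
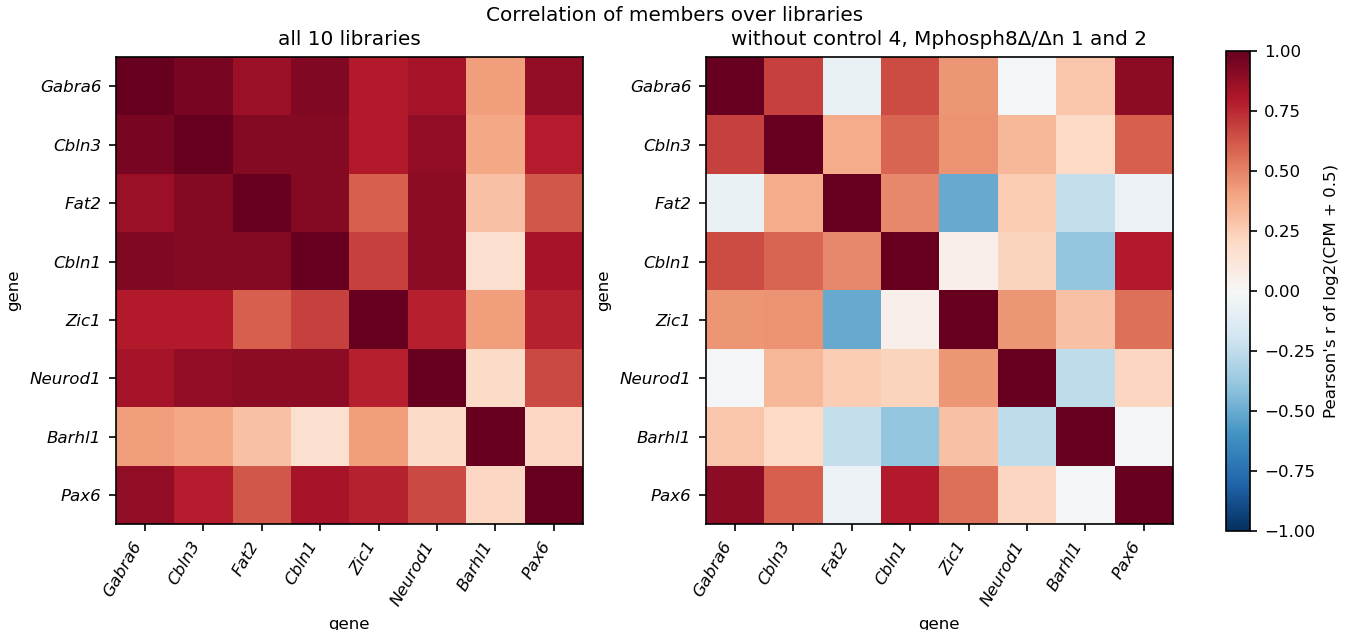
Pearson's r of log2(CPM + 0.5) between the 8 members tested, over all 10 libraries (left) and over the 7 libraries left without control 4 and *Mphosph8*Δ/Δn 1 and 2 (right); red is positive and blue negative. The median of the 28 pairs is 0.79 on the left and 0.29 on the right, where *Pax6*, *Gabra6* and *Cbln1* stay red.

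The genes most like the mean standardised level of the members over the 10 libraries were *Gm2694* (r = 0.941), *Gm10837* (r = 0.936), *Svep1* (r = 0.931), *Pcp2* (r = 0.930) and *Cldn5* (r = 0.920). *Gm2694* was at 46.7, 43.8 and 64.5 CPM in the 3 libraries and at 13.1 to 19.9 CPM in the others, and *Svep1*, an extracellular matrix gene, at 5.89 to 9.30 CPM against 0.103 to 1.14 CPM. The most opposite were *Gm47982* (r = -0.953), *Jam3* (r = -0.936) and *Gm3364* (r = -0.925). These were the highest and lowest of all genes tested over 10 libraries, so that high values occur by selection.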

How the data were processed

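RNA-seq of sorted NeuN+ nuclei was analysed in 10 libraries grouped by the labelled genotype. The authors trimmed reads (Trim Galore 0.5.0), removed those that aligned to abundant sequences (Bowtie2 2.3.4.1), aligned the rest to GRCm38 with STAR and counted reads per gene with featureCounts (Subread 1.6.2). The deposited tables hold unscaled counts for 54532 genes, and the strand setting is not given in the sources used here. Symbols came from GENCODE M21 (54495 identifiers matched).

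Counts were tested in R 4.3.3 with edgeR 4.0.16 (filterByExpr, TMM, quasi-likelihood test, Benjamini-Hochberg over 18573 genes). The 3 groups were fitted together, and the comparisons by floxed line in a fit of 4 groups. edgeR gives no SE for this test. Each SE was derived as the absolute log2 fold change over the square root of the F statistic, and intervals from it with the t distribution. A call needs an adjusted p below 0.05 and a fold above 2. Alternatives were DESeq2 1.42.0, limma-voom (limma 3.58.1), other filters and scalings, and leaving out libraries. The pipeline was tested on simulated counts. The study describes its replicates as biological and these mice as littermates, and which libraries share a litter is not given in the sources used here.

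All 9 members are named, and other genes by list, by likeness (5 highest, 3 lowest) or where stated. Members and lists were chosen with earlier results of these data known. Python 3.11.15, pandas 2.3.3 and matplotlib 3.10.9 were used.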

Additional observations from a re-analysis of the deposited data

Results flagged for a closer look

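Control replicate 4 lay far above the other 4 control libraries for 5 members and for their sum. Its gap to the next control, as a share of the range of the 5 controls, was 0.967 for *Cbln1*, 0.966 for *Gabra6*, 0.964 for *Cbln3*, 0.964 for *Fat2*, 0.886 for *Neurod1* and 0.912 for the sum of the 9 members, against Dixon's critical value of 0.71 for 5 values. Chance passes this value in about 5% of groups, and members that vary together are not separate events. *Zic1*, *Pax6* and *Barhl1* did not pass it. Groups of 3 and 2 libraries were not examined in this way.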

How the results depend on the processing

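Without the low-count filter, 1, 4, 5 and 7 members were called upon *Mphosph8* loss, upon *Morc2a* loss, between the floxed lines of controls and for the difference of the effects, against 0 with it, and 87, 98, 154 and 85 genes against 18, 11, 24 and 0. DESeq2 called 0, 1, 0 and 3 members and 43, 27, 96 and 45 genes, and limma-voom turned the difference of the effects on *Barhl1* to 0.11. Other gene counts that moved were 10 upon *Mphosph8* loss against controls of the same line, 14 between lines with limma-voom, and, upon *Morc2a* loss, 24 with at least 10 counts in every library and 6 with only the 2 groups fitted. Replicate numbers did not pair the libraries: correlations of deviations were -0.0277 to 0.0546 in 7 same-numbered pairs and -0.0595 to 0.0411 in 24 others. With replicate number as a block, 46 genes were called upon *Morc2a* loss and 12 upon *Mphosph8* loss, with 0 members in each, and the other comparisons could not be fitted with it.

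Leaving out 1 library gave 0 to 3, 0 to 0, 0 to 4 and 0 to 5 members in the same order of comparisons, and 6 to 21, 3 to 26, 11 to 44 and 0 to 12 genes. Against the same line, where this was added after seeing the data, it gave 0 to 2 members and 4 to 15 genes upon each loss. Log2 values that turned were those of *Barhl1* upon *Mphosph8* loss (-0.47 to 0.37), *Neurod1* (-0.94 to 0.14) and *Fat2* (-3.79 to 0.46) upon *Morc2a* loss, and, between lines, *Neurod1* (-0.27 to 2.15), *Cbln1* (-0.10 to 2.18), *Cbln3* (-2.32 to 4.82) and *Fat2* (-3.58 to 4.92). Others that turned were *Barhl1* for the difference of the effects (-0.64 to 0.20) and for *Mphosph8* loss against the same line (-0.69 to 0.15), and *Neurod1* (-2.06 to 0.36) and *Fat2* (-4.98 to 3.71) for *Morc2a* loss against the same line. The median pairwise r ranged from 0.73 to 0.84, and the mean sums from 103 to 227 CPM in controls and from 243 to 417 CPM in *Mphosph8*Δ/Δn.

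Without control replicate 4 and *Mphosph8*Δ/Δn replicates 1 and 2, an alternative chosen after seeing the data, 0 members and 1, 11, 41 and 9 genes were called in the same order. Then *Neurod1* was at 0.15 and *Fat2* at 0.49 upon *Morc2a* loss, *Neurod1*, *Cbln1*, *Cbln3* and *Fat2* were at -0.27, -0.10, -2.32 and -3.58 between lines, *Barhl1* and *Fat2* were at 1.78 and 3.3 for the difference of the effects, *Mphosph8*Δ/Δn was left with 149 CPM in 1 library, assumed to vary like the other groups, and the median r and rho were 0.29 and 0.23. The causes were not tested. With 0 to 7 counts in some libraries, the levels of *Gabra6*, *Cbln3*, *Fat2*, *Barhl1* and *Zic2* are limited by depth. Without control replicate 4, the *Fat2* value between lines rests on 1 count in control replicate 5.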
